A study of Mus musculus with 6 samples.

Results

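Day 7 myotubes were compared with Day 0 myoblasts of C2C12, a mouse myoblast line, across all genes measured by RNA-seq. The members are the 2 libraries labelled as myotubes and the 2 labelled as myoblasts, 4 of the 6 libraries of the series. The other 2 are reserve cells, also of Day 7. They entered the same fit, so they bear on its filter, scaling and estimate of spread. Beyond that they show where myotubes differ from the cells that shared their dish. C2C12 is an immortalised line, so the libraries of a group are separate samples of 1 line and not of separate animals. No allele, deletion or drug distinguished the groups. All cells were grown in DMEM with fetal bovine serum, and the Day 7 cells had then been kept in DMEM with horse serum, which is poor in growth factors. Myotubes were loosened from the dish by a mild trypsin treatment that leaves most reserve cells behind, so a myotube library can hold some reserve cells. A reserve cell library could likewise hold some myotubes. The study's culture protocol gives the age of mature myotubes in hours, as a time shorter than the Day 7 of the labels. By the submitters' wording the replicates are biological. If they came from 1 culture, the p-values given here would measure technical spread.

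Skeletal myoblasts are mononucleated, dividing cells. When growth factors are withdrawn they leave the cell cycle for good, line up, fuse and build sarcomeres, the repeating units in which thick filaments of myosin pull on thin filaments of actin between Z-discs. Contraction is set off at the triad, where a voltage sensor in the plasma membrane opens the calcium channel of the sarcoplasmic reticulum. The genes of this machinery are switched on by MyoD family factors, which bind E-boxes, together with MEF2 factors, and the genes of the cell cycle are shut by the pocket proteins and the DREAM complex, which act through E2F and CHR elements. Many muscle proteins have a relative that every cell uses, and the muscle form takes its place during differentiation.

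The 4 libraries held 15658875 to 20055078 estimated counts, and 19318 to 19905 genes had a count. Levels are given as CPM, the counts divided by the library total after its scaling by the trimmed mean of M values (TMM), and differences as log2 of myotube over myoblast from edgeR's quasi-likelihood fit. A gene was called at a Benjamini-Hochberg adjusted p under 0.05. Among 15467 genes tested, 10137 (65.5%) were called, 5056 (32.7%) of them higher and 5081 (32.9%) lower in myotubes, so a call by itself says little and the size of the difference carries more. A called difference of at least 2-fold was found for 2571 genes in the upward direction (16.6%) and 2868 in the downward direction (18.5%). Counts of members that rose or fell in the gene lists below are to be read beside these shares. In bulk RNA, fewer cells of a type and less RNA per cell cannot be told apart.

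By fitted difference, the change was lopsided at its extremes. Of the genes called at 64-fold or more, 480 were higher and 122 lower, whereas between 2-fold and 16-fold more genes were lower (2622) than higher (1856). For genes with 0 counts in a group the fitted fold is not a bound and can be too large. Rpl3l, for example, had 0 counts in myoblasts and 2.28 CPM in myotubes, at a fitted 333-fold. The part of such genes in the imbalance was not tested. The 715 genes at least 16-fold higher held 0.182% and 0.183% of the counts in the myoblast libraries, and 11.9% and 11.8% in the myotube libraries. In the reserve cells the same genes held 3.52% and 3.59%. The 246 genes at least 16-fold lower went from 0.940% and 0.944% of the counts to 0.0303% and 0.0285%. These shares describe groups of genes formed by the same difference. There were 271 genes with no count in either myoblast library and at least 10 counts in each myotube library, and 96 genes of the opposite kind.

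**Figure D1:**
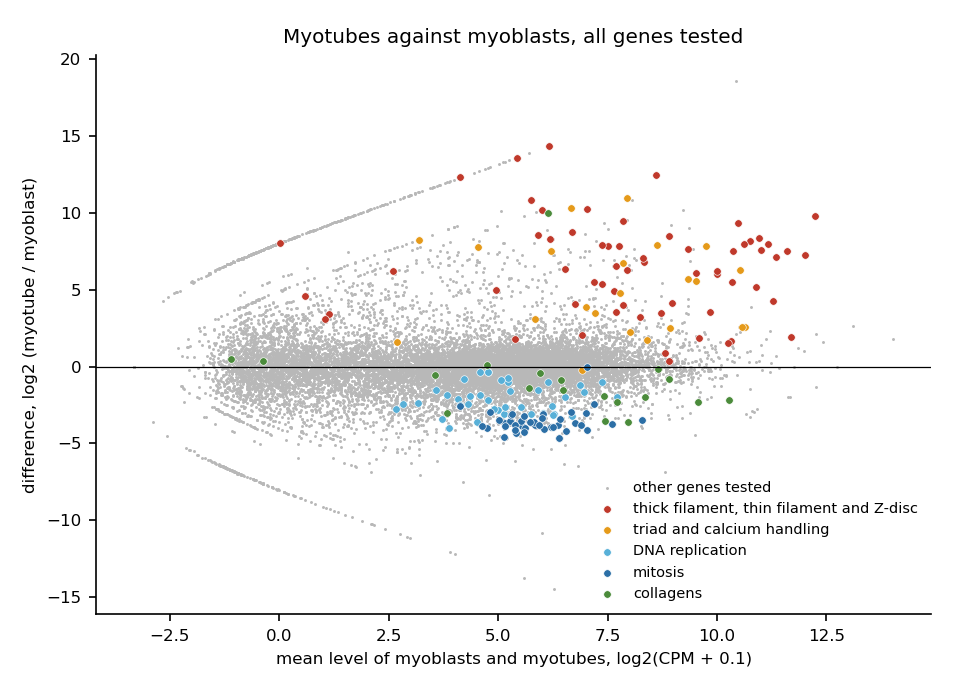
Difference between myotubes and myoblasts (log2) against the mean level of both (log2 of CPM + 0.1) for the 15467 genes tested, 1 point per gene, with 5 groups of gene lists in colour. Genes of the filaments, Z-disc and triad lie far above 0 and those of DNA replication and mitosis below it, while the arcs at the upper and lower edges are genes with 0 counts in 1 of the groups, whose fitted differences are not bounds.

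Genes silent in myoblasts ranked first by fitted increase, a ranking that favours genes with 0 counts. Casq1, with counts in myoblasts, stood outside the 15 described here at a fitted 2044-fold. Asb14 was among the 15 with an increase bounded at 316-fold or more. By rule, the 15 with the largest fitted increase among well expressed, called genes were examined, and 14 of them had 0 counts in both myoblast libraries. Mybpc2, the fast form of myosin-binding protein C (chr7:44501699-44524656 of mm10), had 146 and 139.5 CPM in the myotube libraries, at least 1844-fold higher against a floor of 3 counts over the group. Myl2, the regulatory light chain of slow muscle and heart, had 83.5 and 87.7 CPM, at least 1110-fold higher. Dystrophin (Dmd), which ties the cytoskeleton to the membrane, had 65.2 and 85.4 CPM and at least a 988-fold increase. Myh4, the heavy chain of the fastest fibres, had 5 counts in 1 myoblast library and 0 in the other, and rose to 781 and 778 CPM.

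The others of the 15 were of several kinds. Ampd1 encodes the muscle AMP deaminase, Ppp1r3a a subunit that brings protein phosphatase to glycogen, Adprhl1 a protein of striated muscle and Asb14 an adaptor of a ubiquitin ligase. Myot encodes a Z-disc protein. The secreted or matrix proteins of Gdf5 (53.3 and 55.4 CPM), Adamtsl2 (72.2 and 69.5 CPM) and Frem2 (30.9 and 25.6 CPM), the membrane protein of Fxyd6 (81.99 and 84.5 CPM) and the microtubule protein of Tekt5 (24.2 and 25.5 CPM) belonged to none of the muscle groups. Ighm, the constant region of immunoglobulin M, was listed at 96.9 and 113 CPM in myotubes and 0 in myoblasts, at least 1366-fold higher, and stood at 15.4 and 17.4 CPM in the reserve cells. Of 6 macrophage and leukocyte markers, Ptprc and Adgre1 had no count in the myoblast or myotube libraries, Itgam rose from 0 counts to 0.853 and 0.931 CPM, Cd68 fell from 1.63 and 2.398 to 0.996 and 0.407 CPM, Csf1r was not called and Lyz2 was not tested. The call of Cd68 was lost without either myoblast library (edgeR adjusted p = 0.0576 and 0.224), without myotube replicate 2 (0.195) and by DESeq2 (adjusted p = 0.104), and that of Nppb without myoblast replicate 1 (edgeR adjusted p = 0.0812).

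The 15 largest decreases were of other kinds. Prl2c3 and Prl2c2, members of the prolactin family known as proliferins, fell to 0 counts in both myotube libraries, the first from 83.6 and 110.3 CPM and the second from 30.6 and 28.8 CPM, and as near copies they can share reads. The neutrophil chemokine Cxcl5 fell from 12.3 and 14.2 CPM to 0 counts, at least 139-fold lower. Nefl and Nefm, genes of the neurofilament light and medium chains whose annotated spans overlap on chromosome 14 so that reads could be shared, both fell, Nefl from 126 and 130.3 to 0.142 and 0 CPM and Nefm from 182 and 177 to 1.78 and 2.56 CPM. With Gap43 (34.5 and 38.2 to 0 and 0.349 CPM) and Ptprn (17.7 and 17.8 to 0.284 and 0.349 CPM), these are genes best known from neurons, while of the neural and Schwann markers Sox10, Snap25 and Syt1 had no count in any of the 4 libraries and Mbp fell from 1.98 and 3.32 to 0.356 and 0.116 CPM.

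Igfbp2, which binds insulin-like growth factors, had the highest level in this group and fell from 904 and 875 to 6.19 and 9.07 CPM (log2 -6.85, SE 0.152, edgeR adjusted p = 2.48e-07). The water channel Aqp1 fell from 223 and 228 to 2.702 and 2.33 CPM, the Hedgehog antagonist Hhip from 52.9 and 56.7 to 0.142 and 0.174 CPM and the scaffold Akap12 from 88.3 and 77.3 to 0.924 and 1.34 CPM. Celf4, Itgb7 and Slc15a3 completed the group and had 20.7 and 15.5 CPM, 17.3 and 14.1 CPM and, for Slc15a3, 32.3 and 14.9 CPM in the myoblast libraries. Tns3, an adhesion protein, fell from 56.6 and 47.03 to 0.853 and 0.698 CPM, but its reserve cell libraries differed widely (113 and 40.04 CPM). That spread enters the shared fit, and its edgeR adjusted p was 0.0145, which rose to between 0.0597 and 0.103 when any 1 of the 4 libraries compared was left out.

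**Figure D2:**
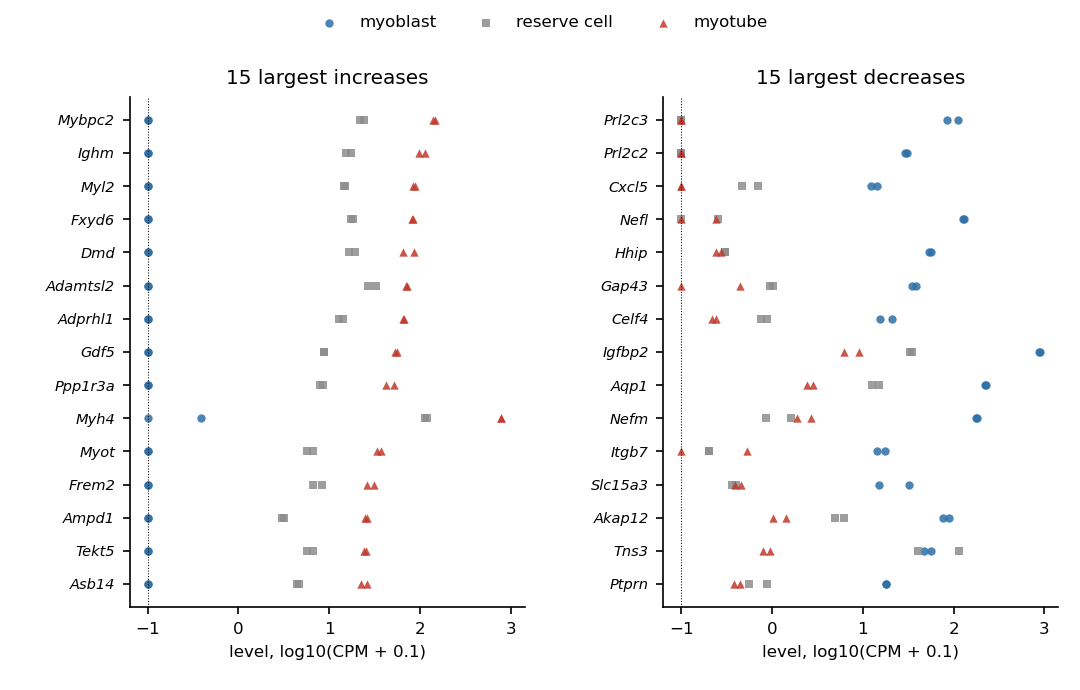
Level in each library (log10 of CPM + 0.1) of the 15 genes with the largest fitted increase and the 15 with the largest decrease. Myoblast libraries (circles) sit at the dotted line of 0 counts for 14 of the increases, and reserve cells (squares) sit between both groups for all 15 increases.

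Every one of the 19 genes of the thick filament and M-band rose, all by more than 2-fold, with a median log2 difference of 8.01 (7.59 with genes at 0 counts set at their bounds) beside 0.00454 over all genes tested. Together they held 0.0199% and 0.0189% of the scaled counts in myoblasts and 3.93% and 3.89% in myotubes. Mylpf, the fast regulatory light chain, rose from 33.5 and 35.2 to 6401 and 6015 CPM (log2 7.495, SE 0.0539, edgeR adjusted p = 7.2e-18), and Myl1, the essential light chain, from 21 and 21.7 to 4240 and 4003 CPM. Myom3, a cross-linker of the M-band, rose from 5.72 and 5.76 to 632 and 652 CPM.

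Myosin heavy chains of several stages and fibre types were present in the same libraries. Per length, in TPM, which also divides counts by transcript length, Myh1 of fast fibres came first in myotubes with a mean of 3051, followed by the embryonic Myh3 with 1598. The perinatal Myh8 had 289 TPM, Myh4 241, the slow Myh7 187 and Myh2 142, where Myh8 and Myh2 were named after their values were seen. The embryonic form was the most abundant of these 6 in myoblasts, with 15.2 TPM against 4.597 for Myh1. These genes are close relatives that lie in a cluster, apart from Myh7, so reads of shared sequence could be divided among them.

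Of the 18 genes of the thin filament 17 rose, with a median of 6.14. Acta1, the skeletal actin, rose from 51.99 and 53.5 to 8200 and 8172 CPM (log2 7.28, SE 0.0407, edgeR adjusted p = 1.19e-18) and Actc1, the actin of heart and embryonic muscle, from 28.01 and 26.8 to 2033 and 2035 CPM. Troponin T, which anchors the calcium switch to tropomyosin, was represented by Tnnt3 of fast fibres (12.2 and 11.3 to 3519 and 3421 CPM) and Tnnt2 of heart and embryo (55.8 and 55.4 to 2555 and 2496 CPM). Tropomyosin itself, Tpm2, rose from 237 and 253 to 4742 and 4648 CPM. The exception was nebulin (Neb), named after its value was seen, with 0.817 and 22.3 CPM in the myoblast and 227 and 185 CPM in the myotube libraries. Its groups did not overlap, as was so for 82.9% of all genes tested. The myoblast libraries differed widely, and the edgeR adjusted p was 0.0732. The log2 difference was 4.101, against 3.194 without myoblast replicate 1 and 7.957 without myoblast replicate 2. Nebulin was called higher by DESeq2 (adjusted p = 0.0108) and by edgeR without the robust prior (adjusted p = 0.0024).

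All 25 genes of the Z-disc and titin list rose, with a median of 5.18. Titin (Ttn), the spring between Z-disc and M-band, rose from 96.8 and 108 to 3641 and 3797 CPM. Desmin (Des), the intermediate filament around Z-discs, had the highest level of the list and was already at 1404 and 1357 CPM in myoblasts, against 5268 and 5294 CPM in myotubes. Actn2, the sarcomeric alpha-actinin, rose from 1.17 and 1.57 to 337 and 326 CPM (log2 7.89, SE 0.102, edgeR adjusted p = 1.17e-15), Myoz2 from 0.117 and 0.277 to 257 and 264 CPM and Synpo2l from 55.6 and 50.7 to 936 and 966 CPM. The filament and Z-disc genes were also higher in myotubes than in reserve cells in 18 of 19, 17 of 18 and 24 of 25 cases, beside 27.6% of all genes tested, and none was lower, beside 28.9%. The comparisons share the myotube libraries.

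The 100 bases before the RefSeq start site (GRCm38.p6, the assembly of mm10) are shown for 5 genes of contraction and calcium handling, chosen as those with the smallest adjusted p that have a core E-box (CAGCTG) or a MEF2 site there. Capitals mark these motifs, on either strand.
Mylpf (chr7:127211508-127211607, plus strand): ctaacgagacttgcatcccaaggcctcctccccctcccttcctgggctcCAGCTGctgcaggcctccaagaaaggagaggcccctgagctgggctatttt
Atp2a1 (chr7:126463074-126463173, minus strand): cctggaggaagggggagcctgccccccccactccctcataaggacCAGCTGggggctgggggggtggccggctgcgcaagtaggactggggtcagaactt
Myom3 (chr4:135759615-135759714, plus strand): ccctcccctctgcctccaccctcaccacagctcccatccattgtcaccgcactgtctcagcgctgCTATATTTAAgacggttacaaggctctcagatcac
Tnni1 (chr1:135799321-135799420, plus strand): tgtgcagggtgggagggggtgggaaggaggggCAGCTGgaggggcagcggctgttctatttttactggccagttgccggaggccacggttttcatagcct
Nrap (chr19:56390039-56390138, minus strand): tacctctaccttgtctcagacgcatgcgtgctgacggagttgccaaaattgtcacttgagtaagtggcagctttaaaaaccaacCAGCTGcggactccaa
The capitals are an E-box in Mylpf, Atp2a1, Tnni1 and Nrap and a MEF2 site in Myom3. The 5 genes rose by 7.495, 6.31, 6.804, 7.497 and 4.94 on the log2 scale.

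Over the whole window of 250 bases before to 50 after the start, the core E-box was found in 21 of 59 promoters of the filament and Z-disc lists (35.6%), in 8 of 16 of the triad list, and in 16.3% of all 32851 promoters in the RefSeq table. A MEF2 site was found in 18.6% against 3.19% of all promoters, and the MCAT site of TEAD factors (CATTCC) in 35.6% against 14.7%. The MCAT site was in 12.5% of promoters of the triad list and 10% of the neuromuscular junction list. Promoters were found for 48 genes of the filament and Z-disc lists. The MEF2 site was in 0 of 17 promoters of the thin filament list and in 6 of 23 of the Z-disc list. These are matches of letters, which can include sites that no factor uses.

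Calcium handling, membrane excitability and the motor end plate followed the filaments. Of 22 triad genes tested, 21 rose and 1 fell, with a median of 5.17. Cacna1s, the voltage sensor, rose from 2.92 and 3.55 to 801 and 786 CPM (log2 7.92, SE 0.0759, edgeR adjusted p = 6.24e-17), Casq1, the calcium buffer of the reticulum, from 0.3501 and 0.138 to 485 and 492 CPM and Srl from 23.5 and 25.2 to 1257 and 1286 CPM. Bin1, which shapes the membrane of T-tubules, rose from 462 and 450.3 to 2748 and 2694 CPM. Asph fell (log2 -0.19), from 123 and 132 to 108 and 117 CPM, a call lost without myoblast replicate 2 (edgeR adjusted p = 0.196) or myotube replicate 1 (0.153), with RLE factors (0.0513) and by DESeq2 (0.0673). The untested member was sarcolipin (Sln), with 0.0711 CPM in myotubes on average.

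All 8 membrane channels and pumps rose. The muscle sodium channel Scn4a went from 1.63 and 0.646 to 193 and 202 CPM. The chloride channel Clcn1, which sets the resting potential of adult fibres, reached 3.63 and 2.91 CPM. The inward rectifier Kcnj2 rose by 1.17, the pump subunit Atp1b1 by 2.53, and Fxyd1, a regulator of the pump, from 0.117 and 0 to 6.898 and 8.61 CPM.

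Of 12 genes of the neuromuscular junction 11 rose. The receptor subunits were led by Chrna1 (522 and 503 to 2445 and 2472 CPM) and the fetal subunit Chrng (24.9 and 27.3 to 1282 and 1240 CPM), and the adult subunit Chrne reached 13.7 and 13.6 CPM. Chrnd and Chrnb1 rose by 3.15 and 2.07, and the signalling proteins Musk, Lrp4, Dok7 and Rapsn by 1.62, 1.99, 3.15 and 0.68. Acetylcholinesterase (Ache) and its collagen tail (Colq) rose, Ache from 0.408 and 0 to 13.5 and 15.01 CPM and Colq from 0.292 and 0.231 to 30.4 and 31.9 CPM. Agrin (Agrn), the organiser that nerves release, fell from 65.6 and 69.6 to 21.4 and 19.7 CPM.

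In the dystrophin complex 14 of 18 genes rose and 2 fell. Sgca, a sarcoglycan of striated muscle, rose from 10.4 and 10.7 to 165 and 157 CPM, and dystroglycan (Dag1) from 354 and 359.8 to 1099 and 1099 CPM. The members that fell were the more broadly expressed sarcoglycan Sgce, from 28.3 and 28.7 to 5.902 and 6.51 CPM, and syntrophin Sntb2, from 102 and 104 to 32.9 and 38.1 CPM. Utrophin (Utrn), the relative of dystrophin, rose by 0.53.

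Small heat shock proteins and myosin chaperones moved both ways, 8 of 11 higher and 3 lower. Unc45b, which folds myosin, rose from 4.08 and 2.63 to 399 and 402 CPM and Smyd1 from 9.57 and 11.8 to 217 and 221 CPM. Among the small heat shock proteins Hspb7 rose from 0.525 and 0.692 to 254 and 248 CPM, Cryab from 145 and 144 to 1064 and 1081 CPM, and Hspb8, Hspb2 and Hspb3 by 2.82, 4.12 and 7.499. Bag3, a partner of Hspb8, rose by 0.27, or -0.00373 and not called with library totals. The members that fell were Hspb1 (707 and 727 to 352 and 372 CPM), Hspb6 (15.5 and 17.6 to 8.82 and 12.4 CPM) and the inducible cytosolic Hsp90aa1 (912 and 945 to 414 and 438 CPM).

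Energy metabolism followed, beginning with the enzymes of sugar. In glycolysis and glycogen use 14 of 28 genes rose and 11 fell, or 11 and 12 when libraries were scaled by their totals. Pfkm, the muscle phosphofructokinase, rose from 56.4 and 60.6 to 1224 and 1253 CPM (log2 4.402, SE 0.0508, edgeR adjusted p = 3.74e-16) while Pfkl and Pfkp fell (log2 -1.44 and -1.41). Pygm, the muscle phosphorylase, rose from 4.55 and 4.61 to 576 and 558 CPM, Pygb fell from 88.6 and 94.3 to 22.97 and 28.4 CPM, and Pygl, the liver form, went from 0.117 and 0.922 CPM to 0 counts, a call lost without myoblast replicate 2 (edgeR adjusted p = 0.255), myotube replicate 1 (0.0663) or myotube replicate 2 (0.0782). Aldoa, aldolase of muscle, rose from 1143 and 1101 to 3037 and 2885 CPM, and pyruvate kinase (Pkm) fell from 2667 and 2653 to 2090 and 2054 CPM. Gapdh was listed at only 65.1 and 87.2 CPM on average. It has many processed copies in the mouse genome, and its level here, named after it was seen, cannot be set against those of other enzymes.

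The oxidative machinery rose broadly and by less. Of 45 nuclear-encoded subunits of oxidative phosphorylation 43 rose, with a median of 0.79, and 15 reached 2-fold. Ndufs1 and Ndufv1 of complex I rose, Ndufs1 from 122 and 128 to 294 and 291 CPM (log2 1.23, SE 0.0513, edgeR adjusted p = 1.23e-10) and Ndufv1 from 92.1 and 96.7 to 214 and 206 CPM, and Atp5b, a catalytic subunit of ATP synthase, from 1518 and 1548 to 1916 and 1866 CPM, a log2 difference of 0.303 that was 0.0248 and not called with library totals. The subunits that fell, Cox6a1 and Cox8a, are the general forms whose muscle forms Cox6a2 and Cox8b rose, Cox6a2 from 0.525 and 0.415 to 156 and 146 CPM and Cox8b from 0.117 and 0.369 to 46.9 and 36.8 CPM. Of 13 mitochondrially encoded protein genes 11 rose, with a median of 2.01. mt-Co1 led all genes in both groups (7545 and 7604 CPM in myoblasts and 25470 and 26190 CPM in myotubes). By contrast mt-Co2 was listed at 17.9 and 13.1 CPM in myoblasts and 85.4 and 36.4 CPM in myotubes. The cause of this gap was not tested, and the mitochondrially encoded genes are best read together. The mitochondrial share of all counts was 1.89% and 1.90% in myoblasts and 5.30% and 5.37% in myotubes.

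In the TCA cycle and fatty acid oxidation 22 of 33 genes rose and 5 fell. Pdha1, the gate from glycolysis, rose from 228 and 243 to 721 and 723 CPM. Fatty acid uptake and binding showed the largest increases, with Cd36 from 0.933 and 1.06 to 99.6 and 92.8 CPM and Fabp3 from 1.81 and 2.86 to 119 and 116 CPM. Lipoprotein lipase (Lpl) fell from 32.1 and 34.1 to 3.56 and 3.78 CPM, and Cpt1a, Idh2, Idh3b and Acadm fell (log2 -2.87, -1.42, -1.02 and -0.397). The muscle form Cpt1b had 0.758 and 0.415 CPM in myoblasts and 0.356 and 1.69 CPM in myotubes and was not called.

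The regulators of mitochondrial genes were divided. Ppargc1a, the coactivator PGC-1alpha, rose from 1.87 and 3.09 to 7.11 and 8.72 CPM and Ppargc1b from 10.3 and 9.68 to 18.8 and 17.8 CPM. Esrrb went from 0 counts to 2.84 and 2.09 CPM. Ppard, Nrf1 and Gabpa fell (log2 -0.77, -0.86 and -0.52), while Tfam (43.8 and 45 CPM in myoblasts and 48.9 and 47.5 CPM in myotubes), Esrra (22.9 and 23.6 CPM in myoblasts and 30.1 and 53.5 CPM in myotubes), Ppara and Perm1 were not called. Esrra was called higher by DESeq2 (adjusted p = 0.000957), without myotube replicate 1 (edgeR adjusted p = 6.19e-06) and without the robust prior (0.0117), and Ppara with the 4 libraries compared alone (0.0202) and without reserve cell replicate 1 (0.0431). Esrrg was at 1.22 CPM and was not tested. The number of these genes that rose, 3 of 10, ranged from 1 to 5 among the alternatives tried.

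Phosphate buffering and oxygen storage rose strongly. Creatine kinase of muscle (Ckm) went from 7.53 and 6.502 to 1417 and 1367 CPM (log2 7.64, SE 0.07299, edgeR adjusted p = 9.16e-17) and myoglobin (Mb) from 1.57 and 1.71 to 999 and 962 CPM. The mitochondrial creatine kinase of muscle, Ckmt2, had 0 counts in myoblasts and 7.11 and 7.56 CPM in myotubes, and Ckmt1 was untested at 0.0582 CPM. Adenylate kinase (Ak1), the creatine transporter (Slc6a8) and the brain creatine kinase (Ckb) rose by 2.196, 0.68 and 1.02. The adenine nucleotide carrier Slc25a4 rose by 0.28, a difference that was 0.000708 with scaling by library totals, and Slc25a5 (339 and 341 CPM in myoblasts and 337 and 322 CPM in myotubes) was not called.

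**Figure D3:**
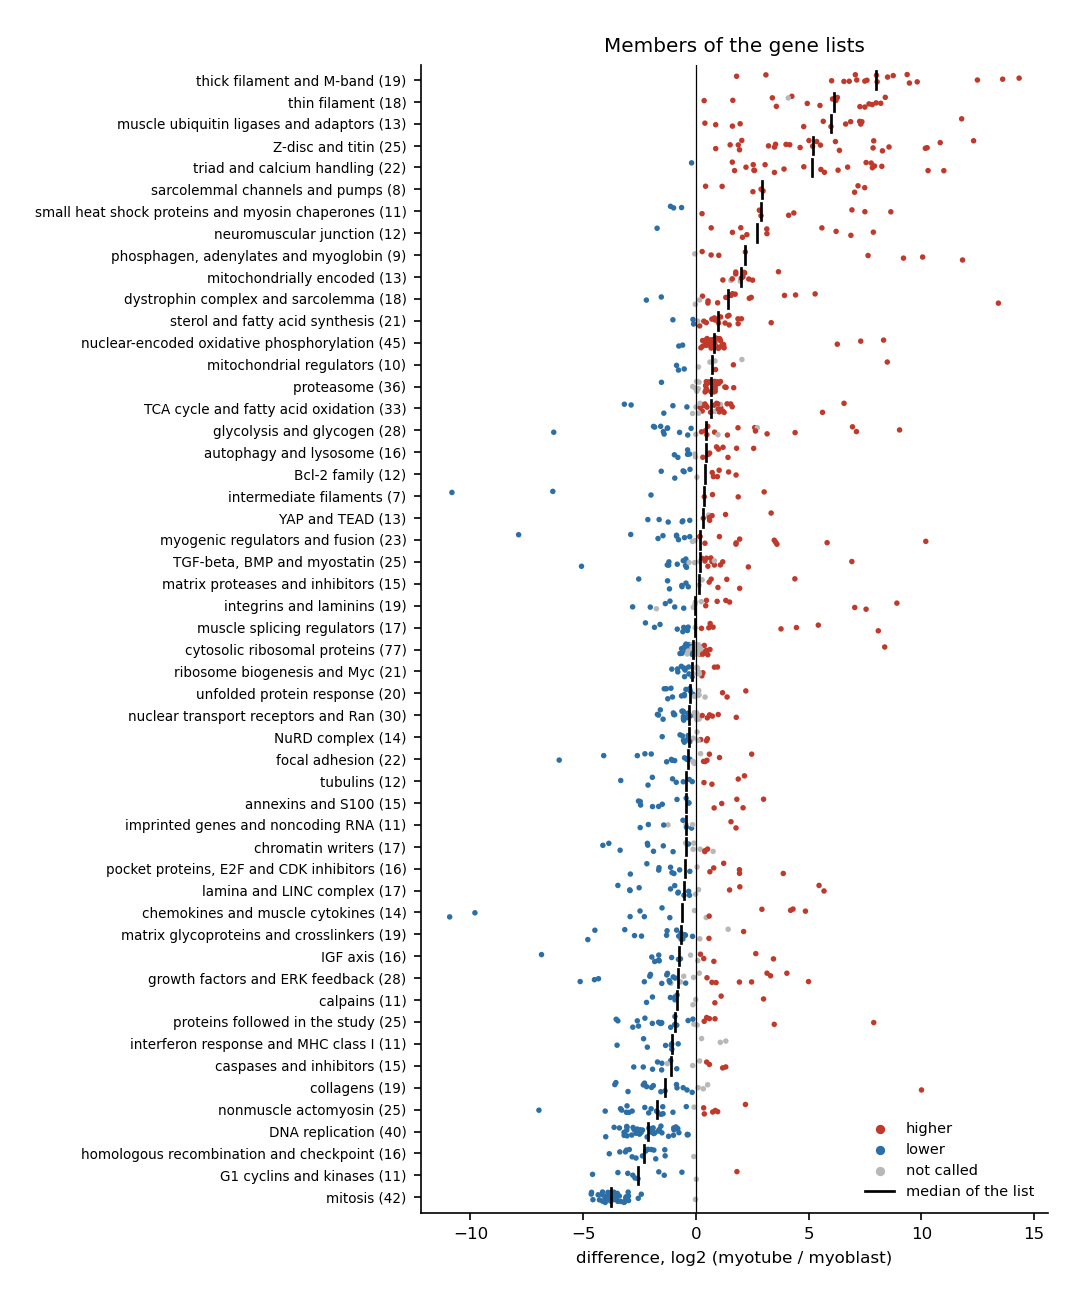
Difference between myotubes and myoblasts (log2) of each tested member of 52 gene lists, 1 point per gene, with the number tested in brackets and a bar at the median of each list. Lists of contraction lie at the upper end, with a median of 8.01 for the thick filament, and mitosis at the lower end, with -3.74.

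The exchange of forms was measured in 42 pairs of related genes, a general and a muscle or differentiated form. The share of the muscle form in the summed TPM of a pair does not depend on how libraries are scaled. In 39 of 42 pairs the share was higher in both myotube libraries than in both myoblast libraries, and in 21 it crossed 50%. By CPM, the groups did not overlap, in either direction, for 82.9% of all genes tested. In 28 pairs the muscle form rose and the general form fell.

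Actin gave a clear exchange. Acta1 held 2.06% and 2.15% of the sum with Actb in the myoblast libraries and 95.99% and 95.8% in the myotube libraries, as Actb fell from 3299 and 3220 to 412 and 419.8 CPM. Caveolin went from 0.449% and 0.189% Cav3 to 95.4% and 95.4%, phosphorylase from 7.41% and 6.399% Pygm to 97.03% and 96.3%, and cysteine-rich proteins from 0.149% and 0% Csrp3 to 88.6% and 88.9%. Phosphoglycerate mutase (Pgam2 beside Pgam1) went from 1.27% and 0.809% to 84.5% and 83.3%. In reserve cells these shares lay between, with Acta1 at 67.9% and 68.7%. Myh4, almost silent in myoblasts, had 114 and 119 CPM in the reserve cell libraries. The part of remaining myotubes in those libraries was not tested.

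Filamin C (Flnc) and cofilin 2 (Cfl2), actin-binding proteins, both gained share, Flnc from 15.7% and 15.4% to 83.4% and 83.8% beside Flna and Cfl2 from 11.3% and 13.6% to 70.95% and 71.8% beside Cfl1. The pairs reached beyond the cytoskeleton. Cyclin D3 (Ccnd3), the D-type cyclin of differentiated muscle, rose from 67.1% and 65.3% of the sum with Ccnd1 to 99.4% and 99.3%. The histone methyltransferase Ezh1 rose from 33.5% and 34.1% to 74.7% and 73.8% beside Ezh2.

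In 6 pairs both forms rose. They included creatine kinase, where Ckm held 4.67% and 4.28% and then 82.7% and 82.01%, and the calcium pumps, where Atp2a1 went from 10.8% and 10.02% to 57.5% and 57.6% although Atp2a2 rose from 426 and 436 to 2603 and 2633 CPM. The adult receptor subunit Chrne held 1.84% and 1.88% of its sum with fetal Chrng. Dystrophin held 12.2% and 14.2% beside utrophin.

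Other pairs stayed with the general form. Eef1a2, the elongation factor of adult muscle, rose from 0 counts and still held 0.0134% and 0.0137% beside Eef1a1, and the muscle ribosomal protein Rpl3l held 0.721% and 0.652% beside Rpl3. The insulin-responsive glucose transporter Slc2a4 reached 14.3% and 16.9%. In the opposite direction, talin 2 (Tln2), the form of adult muscle, fell from 10.8% and 11.2% to 6.34% and 6.83% beside Tln1. The share of Ldha beside Ldhb went from 100% and 99.77% to 99.17% and 99.24%, with neither gene called.

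**Figure D4:**
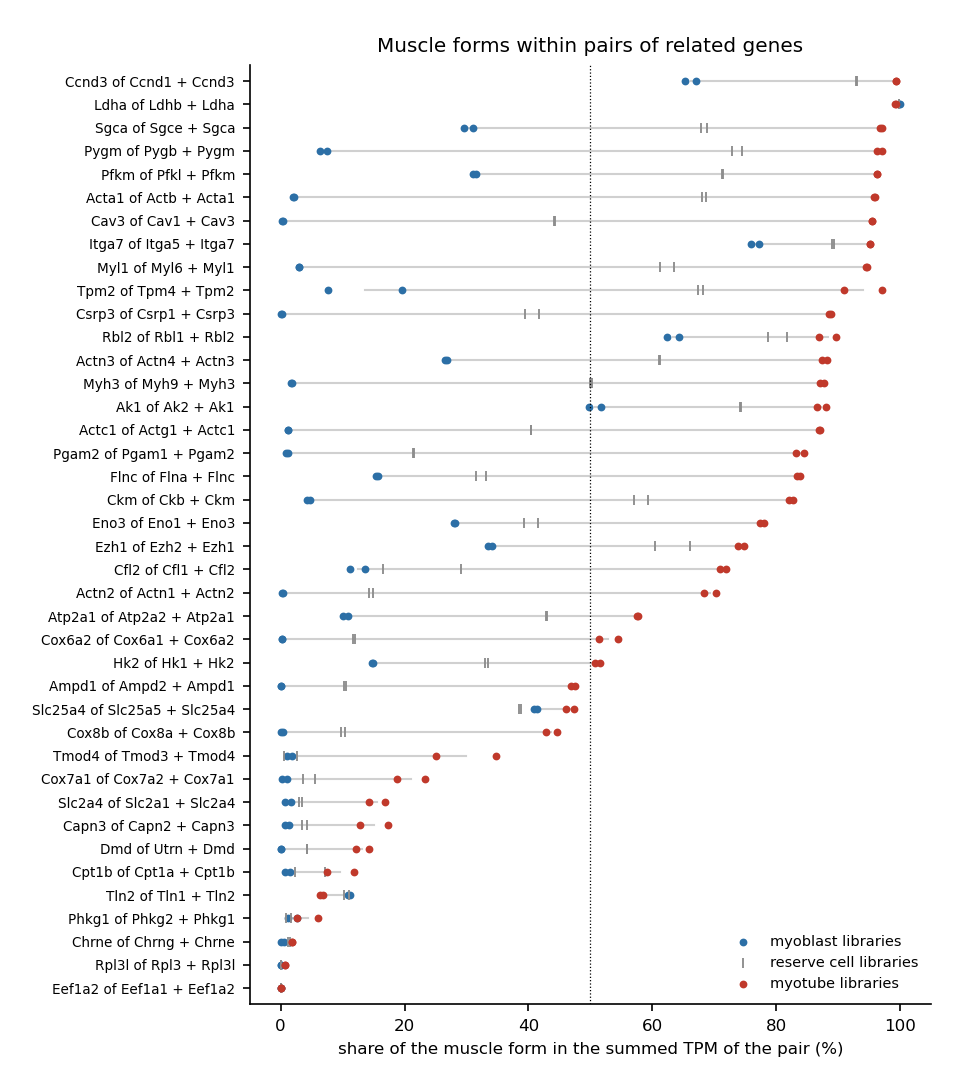
Share of the muscle form in the summed TPM of 40 pairs (%), 1 point per library, ordered by the myotube mean, with a grey line between the group means and a dotted line at 50%. The pair Ckmt1 and Ckmt2 is left out because its sum is 0 in both myoblast libraries, and 1 more pair is not shown.

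Proliferation genes fell together. All 40 genes of DNA replication fell, with a median of -2.12, and 31 by 2-fold or more. Of the helicase subunits, Mcm2 fell from 136 and 141 to 15.2 and 17.9 CPM (log2 -3.07, SE 0.0921, edgeR adjusted p = 4.2e-12), Mcm3 from 138 and 135 to 13.3 and 16.7 CPM and Mcm5 from 111 and 120.3 to 13.7 and 14.1 CPM. Ribonucleotide reductase, which makes deoxynucleotides, fell less, with Rrm2 from 330.2 and 335 to 85.3 and 85.5 CPM and Rrm1 from 216 and 222 to 109 and 115 CPM. The list as a whole held 0.302% and 0.304% of the scaled counts in myoblasts and 0.0819% and 0.0857% in myotubes.

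Mitosis fell further. Of 42 genes 41 fell, all of them by 2-fold or more, with a median of -3.74. Top2a, which untangles chromosomes, fell from 557 and 586 to 49.9 and 52.2 CPM (log2 -3.48, SE 0.0536, edgeR adjusted p = 5.6e-15), Anln, of the cleavage furrow, from 355 and 368 to 26.3 and 28.9 CPM, Kif20a from 253 and 241 to 13.9 and 14.1 CPM and Cenpf from 195 and 204 to 16.1 and 15.7 CPM. The 1 exception, named after its value was seen, was Ube2c, the ubiquitin-conjugating enzyme of the anaphase-promoting complex, with 126 and 136 CPM in myoblasts and 91.6 and 166 CPM in myotubes. Against reserve cells 41 of the 42 mitotic and 35 of the 40 replication genes were lower in myotubes, beside 28.9% of all genes tested.

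Upstream stretches of 100 bases are shown for 6 of these genes, the 3 of mitosis with the smallest adjusted p that hold both a CHR element (TTTGAA) and a CCAAT box, and the 3 of replication that hold an E2F site (TTTCGCGC or TTTGGCGC). Capitals mark these motifs on either strand, so that a CCAAT box can read ATTGG.
Top2a (chr11:99024190-99024289, minus strand): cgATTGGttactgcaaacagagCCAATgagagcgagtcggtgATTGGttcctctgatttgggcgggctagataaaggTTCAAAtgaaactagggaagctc
Prc1 (chr7:80294376-80294475, plus strand): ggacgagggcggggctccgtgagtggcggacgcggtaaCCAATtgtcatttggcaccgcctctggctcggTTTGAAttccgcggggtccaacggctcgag
Cdc20 (chr4:118437344-118437443, minus strand): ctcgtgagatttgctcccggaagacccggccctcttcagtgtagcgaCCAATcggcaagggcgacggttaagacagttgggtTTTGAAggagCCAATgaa
Mcm6 (chr1:128359706-128359805, minus strand): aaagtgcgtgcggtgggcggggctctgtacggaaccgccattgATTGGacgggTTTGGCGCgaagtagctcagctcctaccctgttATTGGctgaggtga
Rfc3 (chr5:151651209-151651308, minus strand): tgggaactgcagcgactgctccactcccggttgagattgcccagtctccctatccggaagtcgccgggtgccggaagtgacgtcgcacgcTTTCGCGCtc
Orc1 (chr4:108579354-108579453, plus strand): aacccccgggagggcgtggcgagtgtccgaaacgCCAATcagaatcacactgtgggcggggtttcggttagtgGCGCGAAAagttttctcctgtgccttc
The mitotic genes Top2a, Prc1 and Cdc20 fell (log2 -3.48, -3.003 and -4.64), and the replication genes Mcm6, Rfc3 and Orc1 fell (log2 -3.19, -1.82 and -2.74).

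Across the list the CHR letters were found in 29 of 38 promoters of mitotic genes (76.3%), against 17.9% of all promoters and 12.2% of those of genes tested, and the CCAAT box in 76.3% against 37.4%. Replication genes had a CHR in 11.1% of promoters and an E2F site in 10 of 36 (27.8%), where all promoters had 0.813% and those of genes tested 1.42%. Promoters were found for 36 of the mitotic and 32 of the replication genes. The core E-box was in 10.5% and 13.9% of them.

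**Figure D5:**
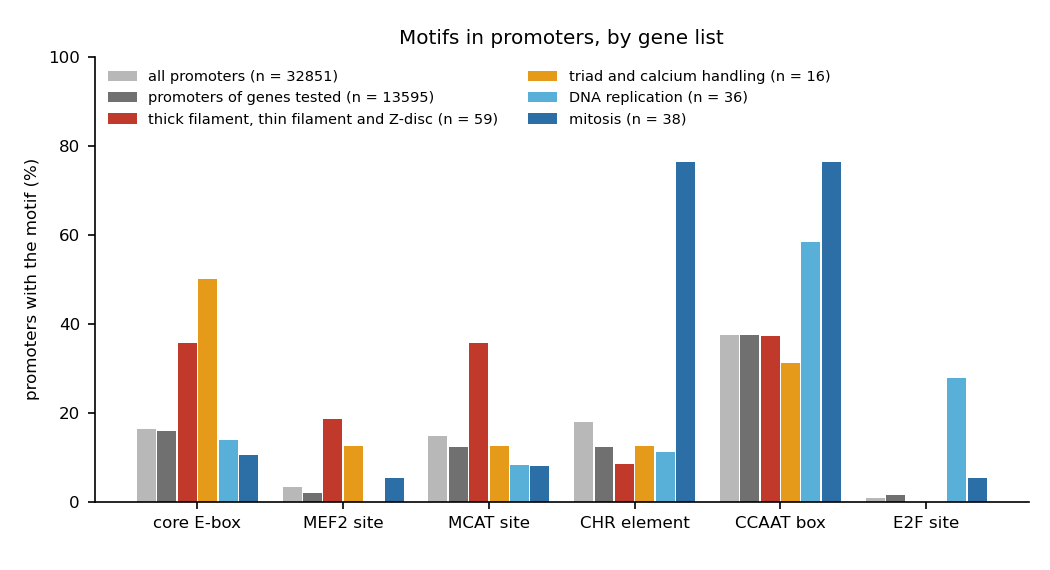
Share of promoters (%) that hold each of 6 motifs on either strand, in the window of 250 bases before to 50 after the RefSeq start, for all promoters, those of genes tested and 4 groups of gene lists, with the number of promoters in brackets. The CHR element and CCAAT box stand out in mitosis (76.3% each), and the E-box in the triad and contractile lists (50% and 35.6%).

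Regulators of the cycle fell with 1 clear exception among the D-type cyclins. Ccnd1 fell from 281 and 264 to 10.7 and 11.98 CPM and Ccnd2 from 37.2 and 34.4 to 4.98 and 5.99 CPM, while Ccnd3 rose from 271 and 270.2 to 972 and 944 CPM. Cdk4 and Cdk6 fell (log2 -1.64 and -3.02), Ccna2, Ccne1 and Ccne2 (log2 -3.46, -2.796 and -1.402), and Skp2 and Cdc25a (log2 -2.57 and -0.62). Cdk2 had 63.01 and 65.2 CPM in myoblasts and 67.1 and 62.99 CPM in myotubes and was not called.

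The brakes moved both ways. Cdkn1a, the inhibitor p21, rose from 229.8 and 219 to 3295 and 3306 CPM (log2 3.88, SE 0.0476, edgeR adjusted p = 7e-16). The retinoblastoma gene Rb1 rose from 62.1 and 55.2 to 218 and 229.8 CPM. The inhibitors Cdkn1b, Cdkn2c and Cdkn2d, named after their values were seen, fell (log2 -0.72, -1.12 and -0.27). The pocket protein Rbl1 fell as well (log2 -2.17), and its relative Rbl2 was not called. Cdkn1c rose by 0.79, a call lost with library totals (edgeR adjusted p = 0.0665), without myoblast replicate 1 (0.0733) and without myotube replicate 1 (0.138). The E2F family divided, with E2f2 up from 62.9 and 62.7 to 236 and 245 CPM and E2f6 and E2f4 up by 1.23 and 0.62, while E2f7 fell from 61.3 and 66.5 to 8.75 and 8.32 CPM. In all 6 of 16 genes of this list rose and 9 fell.

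Of 16 genes of homologous recombination and checkpoints 15 fell, including Brca1 (46.04 and 47.6 to 4.48 and 6.51 CPM) and its partner Bard1 (log2 -3.37). Parp1, not called, had 112 and 114 CPM in myoblasts and 108 and 104 CPM in myotubes. Among 17 chromatin writers 9 fell, led by Uhrf1, which brings DNA methyltransferase to new DNA (171 and 169.5 to 11.2 and 12.2 CPM), Dnmt1 itself (184 and 179 to 48.5 and 50.2 CPM) and the architectural proteins Hmga1 (121 and 106 to 11.1 and 11.1 CPM) and Hmga2 (214 and 223 to 12.8 and 12.2 CPM). Ezh1, Tet2 and Hdac5 rose by 0.398, 0.52 and 0.4, but none of these was called higher when libraries were scaled by their totals.

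Most genes of the general cytoskeleton were lower. Of 25 genes of nonmuscle actomyosin 18 fell and 6 rose, and the list went from 2.42% and 2.39% of the scaled counts to 1.01% and 1.001%. Actg1, the cytoplasmic gamma-actin, fell from 2907 and 2897 to 336 and 350.2 CPM and filamin A (Flna) from 3145 and 3091 to 321 and 316 CPM (log2 -3.29, SE 0.0362, edgeR adjusted p = 2.15e-16). Nonmuscle myosin (Myh9) fell from 2549 and 2525 to 923 and 909.5 CPM. The members that rose were the cofilin Cfl2, the light chains Myl12a and Myl12b, Cnn3, Tmsb10 and the smooth muscle actin Acta2 (667 and 651 to 1140 and 1073 CPM), by 2.2, 0.86, 0.35, 0.37, 0.97 and 0.75, of which Myl12b was at 0.0673 and not called with library totals.

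Tubulins and intermediate filaments changed by form. Tubb6 rose from 228 and 234 to 1034 and 1023 CPM, Tuba4a from 87.1 and 96.8 to 344 and 334 CPM, and Tubb2a and Tubb2b by 0.71 and 0.36 (Tubb2b 0.0831 and not called with library totals), while Tubb5 fell from 1413 and 1427 to 330.2 and 322 CPM and Tubb3 from 166 and 157 to 17 and 15.1 CPM. Vimentin (Vim) fell from 5057 and 5007 to 1254 and 1280 CPM. Nestin (Nes) and plectin (Plec) rose by 0.74 and 0.38, and the muscle filament proteins Synm from 0.933 and 2.31 to 13.2 and 13.9 CPM and Sync from 78.8 and 70.4 to 268 and 281 CPM.

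Genes of adhesion plaques were lower more often than higher. Of 22 genes of focal adhesion 12 fell and 6 rose, where 32.9% and 32.7% of all genes tested did so. With library totals 15 fell and 4 rose. Zyxin (Zyx), which reports tension in actin fibres, fell from 1016 and 998 to 169.8 and 163 CPM, its partner Hic-5 (Tgfb1i1) from 82.4 and 79.6 to 15.2 and 18.6 CPM, and Src from 97.7 and 90.7 to 23.96 and 23.8 CPM. Enah, an actin elongation factor, rose from 44.9 and 49.2 to 249.5 and 275 CPM, and Pxn, Lims2, Fermt2, Pdlim7 and Vasp by 0.6, 1.05, 0.49, 0.41 and 0.34, of which Pdlim7 (0.131) and Vasp (0.0639) were not called with library totals. Talin (Tln1) fell (log2 -0.26), and vinculin (Vcl) had 1014 and 1043 CPM in myoblasts and 947 and 988 CPM in myotubes and was not called, although it was called lower in 7 alternatives, for example with no filter (log2 -0.116, edgeR adjusted p = 0.0165).

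Integrins and laminins moved both ways (8 of 19 rose and 6 fell, or 7 and 9 with library totals). Itga7, the laminin receptor of muscle, rose from 737 and 744 to 1816 and 1905 CPM and Itgb1bp2, melusin, from 1.57 and 1.29 to 259 and 276 CPM. Itgb1 rose by 0.47, and Itgb3, Itga3 and Lama5 fell (log2 -2.81, -2.02 and -1.35). Among annexins and S100 proteins 10 of 15 fell, including Anxa2 (1182 and 1176 to 378 and 372 CPM), its partner S100a10 (505 and 524 to 91.2 and 85.2 CPM) and Anxa5. Anxa8, Anxa11, Anxa7, S100a1 and S100a13 rose by 3.004, 2.095, 0.81, 1.82 and 1.15.

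The extracellular matrix fell as well. Of 19 collagens tested 15 fell and 1 rose, with a median of -1.36. Col3a1 and Col1a2, fibrillar collagens, fell, Col3a1 from 2042 and 2049 to 459.7 and 440.4 CPM and Col1a2 from 1262 and 1254 to 246 and 254 CPM, and Col6a3 and Col18a1 (log2 -3.595 and -3.55). Col25a1, a transmembrane collagen of developing muscle, rose from 0.292 and 0 to 137 and 143 CPM. Against reserve cells 16 of the 19 were lower, with a median of -2.38, beside 28.9% of all genes tested that were lower.

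Among 19 other matrix genes 15 fell. Nidogen (Nid1) fell from 1370 and 1399 to 60.1 and 63.98 CPM (log2 -4.48, SE 0.0491, edgeR adjusted p = 2.13e-16), versican (Vcan) from 466 and 464 to 49.9 and 54.6 CPM, tenascin C (Tnc) from 606 and 624 to 116 and 116 CPM and fibronectin (Fn1) from 6965 and 6978 to 2747 and 2919 CPM. Periostin (Postn) and Thbs1 rose by 2.12 and 0.58, yet none of the 19 was higher in myotubes than in reserve cells and 18 were lower. Of all genes tested 27.6% were higher and 28.9% lower than in reserve cells. Matrix proteases and inhibitors were mixed, with the membrane protease Mmp15 up from 11.8 and 12.8 to 263 and 255 CPM, Timp2 up by 0.98 and Mmp14 lower (log2 -1.25).

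Most genes of protein degradation were higher. Of 36 proteasome genes tested 29 rose and 1 fell, with a median of 0.69. The ATPase subunits Psmc3 and Psmc5 rose, Psmc3 from 228 and 226 to 734 and 722 CPM (log2 1.68, SE 0.0448, edgeR adjusted p = 1.31e-12) and Psmc5 from 109.8 and 108 to 282 and 270.4 CPM and the catalytic Psmb7 from 174 and 173 to 436 and 411 CPM. The member that fell, Psme1, belongs to the activator linked to antigen processing (35.01 and 37.8 to 12.7 and 12.6 CPM). All 13 genes tested of the list of muscle ubiquitin ligases and adaptors, which also holds the receptor kinase Musk, rose, with a median of 5.99 (5.65 with bounds). Klhl41 rose from 12.2 and 10.5 to 1319 and 1315 CPM, Trim63, known as MuRF1 of muscle atrophy, from 1.05 and 0.922 to 154 and 149.5 CPM, and Klhl31 and Asb5 by 4.78 and 1.97.

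Ribosomal proteins stayed close to their myoblast levels. Of 77 genes 13 rose and 33 fell, the median was -0.13, and 1 gene changed by 2-fold or more. Scaling by library totals gave 6 and 56, so the balance is not stable. Rplp0 and Rpsa fell, Rplp0 from 1666 and 1673 to 1176 and 1154 CPM and Rpsa from 1241 and 1216 to 743 and 766 CPM, and Rpl38 and Rpl14 rose by 0.63 and 0.53. In the making of ribosomes, nucleophosmin (Npm1), nucleolin (Ncl) and fibrillarin (Fbl) fell (log2 -1.07, -0.48 and -0.81), while Bop1 and Polr1b rose by 0.96 and 0.82.

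Autophagy and lysosome genes were mixed, 9 of 16 higher and 5 lower. Map1lc3a rose from 44.2 and 40.5 to 261 and 239 CPM and cathepsin D (Ctsd) from 502 and 511 to 1358 and 1364 CPM, while cathepsin B (Ctsb) fell from 816 and 825 to 478 and 466 CPM. In the unfolded protein response 12 of 20 fell, including the chaperone Hsp90b1 (1064 and 1067 to 439 and 423 CPM) and Pdia3 (log2 -1.04). Herpud1, Dnajb9 and Atf6 rose by 2.22, 1.39 and 1.18. BiP (Hspa5) fell (log2 -0.13), a call lost without myoblast replicate 2 (edgeR adjusted p = 0.0935) or without myotube replicate 1 (0.106).

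Caspases and their inhibitors came next. Among 15 caspases and inhibitors 8 fell and 4 rose. Casp8 and Apaf1 fell, Casp8 from 34.1 and 30.7 to 4.12 and 5.41 CPM and Apaf1 from 48.6 and 51.5 to 10.2 and 9.66 CPM, and Xiap, an inhibitor of caspases, from 99.5 and 104 to 44.2 and 49.7 CPM. Diablo, Dffa and Birc2 rose by 1.19, 1.33 and 0.6, and Casp12 by 0.48, a call lost with library totals and without myoblast replicate 1 (edgeR adjusted p = 0.145 and 0.0503).

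The Bcl-2 family moved in both directions. The protective Bcl2l1, Mcl1 and Bcl2l2 rose by 1.78, 0.73 and 0.96, as did the death-promoting Bbc3, Pmaip1 and Bid by 1.45, 1.03 and 0.78. Bcl2l11, Bok, Bak1, Bax and Bcl2 fell (log2 -1.54, -0.93, -0.56, -0.26 and -0.52), and Bad (34.2 and 33.7 CPM in myoblasts and 37.9 and 32.2 CPM in myotubes) was not called. Of the calpains, calcium-activated proteases, muscle Capn3 rose from 4.73 and 7.05 to 38.5 and 56.7 CPM and Capn1 and Capn7 by 1.12 and 0.84, while Capn2, Capn5, Capn6, Capn15 and the inhibitor Cast fell (log2 -1.13, -2.19, -1.93, -0.83 and -0.93). Capn10 and the small subunit Capns1 were not called.

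At the nuclear periphery members moved both ways. In the lamina and LINC list 11 of 17 fell and 4 rose. Lamin B1 (Lmnb1) fell from 170.4 and 157 to 13.2 and 16.4 CPM, Tmpo from 478 and 485 to 80.9 and 87.5 CPM and lamin A (Lmna) by a smaller amount (log2 -0.53). Tmem38a, a channel of the reticulum and nuclear envelope in muscle, rose from 18.4 and 19.7 to 836 and 850.2 CPM, Plpp7 from 2.16 and 0.83 to 76.5 and 71.7 CPM, Wfs1 from 71.01 and 77.9 to 292 and 284 CPM and nesprin 1 (Syne1) by 1.496.

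Receptors that carry proteins through the nuclear pore moved both ways. Of 30 receptors and Ran genes 16 fell and 6 rose, or 22 and 5 with library totals. Kpna2 fell from 187 and 188 to 60.2 and 58.9 CPM, its relative Kpna1 rose from 69.8 and 75.2 to 242 and 261 CPM, Kpnb1 fell from 701 and 712 to 354 and 354 CPM and Ranbp1 fell (log2 -1.71). The exporter Crm1 (Xpo1) fell from 228 and 228 to 72.2 and 80.97 CPM. Ipo13, Ipo7, Kpna6, Kpna3 and Ipo8 rose by 0.99, 0.73, 0.61, 0.51 and 0.28, of which Ipo8 was at 0.00439 and not called with library totals. In the NuRD complex Hdac1 fell from 75.2 and 68.2 to 25.96 and 25.01 CPM, Mta1 and Rbbp7 fell (log2 -0.702 and -0.59), and Chd3, Rbbp4 and Mbd3 rose by 0.51, 0.47 and 0.22, of which Mbd3 was at -0.061 and not called with library totals.

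Of 25 genes whose proteins the study followed, 17 fell and 6 rose, a list that the study chose on these cells. Survivin (Birc5), a mitotic and anti-apoptotic protein, fell from 84.4 and 84.01 to 7.396 and 7.15 CPM. FAK (Ptk2) fell from 125 and 131 to 53.3 and 80.04 CPM, with an edgeR adjusted p of 0.0131, and the call was lost without myoblast replicate 1 (0.0607), without myoblast replicate 2 (0.0682), without either reserve cell library (0.0519 and 0.0504) and with the 4 libraries compared alone (0.0566). Spectrin (Sptan1), Casp9, Mbd2 and Tppp3 fell (log2 -0.93, -0.85, -0.34 and -1.93). Psmb3 and Ufl1 rose by 0.85 and 0.37, of which Ufl1 was at 0.0916 and not called with library totals, and Itch (82.7 and 87.2 CPM in myoblasts and 86.8 and 90.1 CPM in myotubes) was not called.

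Growth signals came next. In the IGF axis 9 of 16 fell and 5 rose. Igf2, the autocrine growth factor of muscle, rose from 15.9 and 15.7 to 167 and 177 CPM and its imprinted neighbour, the noncoding H19, from 2452 and 2349 to 15490 and 14830 CPM, which made it second among all genes in myotubes. Igfbp5 fell from 5131 and 5147 to 1306 and 1347 CPM (log2 -1.95, SE 0.0355, edgeR adjusted p = 3.03e-14) and Igfbp7 from 133 and 123 to 42.3 and 39.5 CPM. Igf2r, Igfbp4 and Igfbp6 rose by 0.35, 0.799 and 0.205, of which Igf2r (0.0728) and Igfbp6 (-0.0733) were not called with library totals.

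Among growth factor receptors and ERK feedback genes, hepatocyte growth factor (Hgf) fell from 88.9 and 92.4 to 1.99 and 3.08 CPM and its receptor Met from 159.5 and 158 to 31.4 and 33.7 CPM. The neuregulin receptors Erbb3 and Erbb2 rose, Erbb3 from 32.1 and 30.6 to 315 and 309 CPM and Erbb2 from 53.9 and 54.2 to 206 and 206 CPM. Fgfr1 fell from 348 and 351 to 174 and 175 CPM, while Fgfr3 rose from 1.05 and 0.738 to 30.01 and 26.8 CPM and Fgf21 and Fgf9 by 2.47 and 4.04. The feedback inhibitor Spry1 rose from 10.4 and 10.97 to 96.6 and 94.9 CPM.

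In TGF-beta and BMP signalling 11 of 25 genes rose and 10 fell, which became 8 and 12 with library totals. Follistatin (Fst), an inhibitor of myostatin and activin, rose from 2.45 and 2.997 to 334 and 334 CPM and Tgfb3 from 89.7 and 86.5 to 432 and 453 CPM. Id3, an inhibitor of MyoD, fell from 188 and 169 to 5.902 and 4.77 CPM, and Id1 and Id2 (log2 -1.27 and -1.195). In the YAP and TEAD list 6 of 13 rose and 6 fell, or 5 and 6 with library totals. Tead4 rose from 21.4 and 17.3 to 184 and 206 CPM and Wwtr1 from 178 and 187 to 426 and 482 CPM, and Ccn1, Lats1, Vgll2 and Yap1 fell (log2 -1.63, -1.23, -2.13 and -0.605).

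Secreted signals of inflammation and muscle moved apart. Among 14 chemokines and cytokines 7 fell, and Csf1 went from 178 and 176 to 59.2 and 65.7 CPM and Mif from 283 and 261 to 130.3 and 114 CPM. Of cytokines that muscle releases, Fndc5 rose from 2.98 and 2.81 to 57.2 and 49.5 CPM, Il15 from 0.292 and 0.599 to 8.39 and 9.95 CPM, Lif from 3.62 and 2.997 to 25.5 and 24.7 CPM and Metrnl from 28.3 and 24.3 to 38.8 and 40.2 CPM. Cxcl14 rose by 4.86. In the interferon and MHC list 8 of 11 fell and none rose. B2m, the light chain of MHC class I, fell from 212 and 232 to 104 and 106 CPM, H2-D1 and H2-K1 fell (log2 -1.06 and -0.78), and Isg15, Oasl2, Bst2 and Tap1 were under 10 CPM in all 4 libraries. The call of Isg15 was lost whenever any 1 library was left out (edgeR adjusted p = 0.0563 to 0.219).

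The factors that direct differentiation moved both ways. Mef2c rose from 1.05 and 0.968 to 1173 and 1210 CPM, by 10.2 on the log2 scale, and the fusion protein myomaker (Mymk) from 21.9 and 22.5 to 1259 and 1259 CPM. Myf5, the early myogenic factor, fell from 53.6 and 60.2 to 8.25 and 7.15 CPM, Eya2 fell from 1.52 and 1.66 CPM to 0 counts, and Tcf3 and Tcf12, partners of MyoD, fell (log2 -1.68 and -0.86). Six4 and Eya1 fell (log2 -0.27 and -1.46). The adhesion molecule Ncam1 rose from 226 and 212 to 737 and 774 CPM. In all 12 of 23 genes rose and 9 fell, which became 9 and 11 with library totals.

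Of 17 splicing regulators 8 rose and 8 fell, or 7 and 9 with library totals. Ptbp1, which represses muscle exons, fell from 465 and 446 to 102 and 91.6 CPM (log2 -2.24, SE 0.0571, edgeR adjusted p = 8.33e-13), and Hnrnpa1 fell from 715 and 736 to 242 and 240.3 CPM. Rbm24 rose from 23.3 and 23.4 to 311 and 329 CPM and the kinase Srpk3 from 1.28 and 1.29 to 54.2 and 57.6 CPM. Mbnl1, Mbnl2 and Mbnl3, which favour adult exons, fell (log2 -0.54, -0.58 and -1.83). These are levels of the regulators, and no exon was measured.

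Most genes of sterol synthesis were higher than in myoblasts and lower than in reserve cells. Of 21 genes of sterol and fatty acid synthesis 17 rose against myoblasts, with a median of 0.97. Against reserve cells 20 of 21 were lower, with a median of -0.80, beside 28.9% of all genes tested that were lower. Dhcr7, the last enzyme of cholesterol synthesis, had 30.8 and 28.7 CPM in myoblasts, 308 and 296 in myotubes and 128 and 152 in reserve cells, the 1 member that was not lower than in reserve cells. Hmgcs1, an early enzyme, had 183 and 186 CPM in myoblasts, 497 and 531 in myotubes and 948 and 952 in reserve cells. The desaturase Scd2 had 1922 and 2009 CPM, 3146 and 3283 CPM and 4002 and 4213 CPM in the same order. Fatty acid synthase (Fasn), Acaca and the regulator Srebf2 fell (log2 -0.099, -1.02 and -0.13).

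Long noncoding RNA rose more often than it fell. Of 340 long intergenic RNAs tested 33.2% were higher and 16.8% lower, of 12910 protein-coding genes 34.96% and 36.4%, and of 17 mitochondrial tRNA genes 16 were higher. The nuclear RNAs Malat1 and Neat1 rose, Malat1 from 393 and 407 to 1371 and 1379 CPM and Neat1 from 64.9 and 67.9 to 192 and 199 CPM. In a list of imprinted genes and noncoding RNAs 2 of 11 rose, Malat1 and Neat1, and 6 fell, or 2 and 9 with library totals. The list leaves out H19 and its neighbour Igf2, which were placed in the IGF axis and rose. Of its imprinted genes, Peg10 and Mest fell, Peg10 from 53.04 and 59.4 to 9.88 and 10.4 CPM and Mest from 76.4 and 79.3 to 17.9 and 18.2 CPM, and Peg3 and Ndn (log2 -0.19 and -1.43). An annotated ribosomal RNA locus, CT010467.1, was among the 10 genes with most counts in myotubes (2855 and 2477 CPM in myoblasts and 4964 and 5851 CPM in myotubes). Its part in the other results was not tested.

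Markers of other cell types were examined beside these results. Of the reserve and satellite cell markers 7 were tested and 5 fell, with Pax7 from 72.9 and 68.3 to 8.75 and 11.2 CPM (log2 -2.81, SE 0.112, edgeR adjusted p = 7.77e-11), Cd34 from 31.6 and 32.6 to 10.5 and 10 CPM and Notch3, Hey1 and Heyl (log2 -2.49, -3.32 and -1.38). Sdc4 (190.2 and 176 CPM in myoblasts and 202 and 194 CPM in myotubes) and Hes1 were not called, and Calcr was at 0. Pax7 stood at 61.3 and 65.5 CPM in the reserve cells. The 9 markers summed to 0.0722% and 0.0724% of scaled counts in myoblasts, 0.0338% and 0.0337% in myotubes and 0.0784% and 0.0780% in reserve cells, and the part of remaining reserve cells in the results was not tested. Of adipocyte markers Adipoq, Plin1, Lep and Cidec had no count in the 4 libraries, and Pparg and Cebpa fell, Pparg from 13.7 and 13.7 to 6.61 and 2.91 CPM and Cebpa from 38.3 and 37.95 to 9.17 and 8.14 CPM. Of bone and cartilage markers Acan and Ibsp were at 0, Runx2 and Sox9 fell (log2 -1.55 and -0.53), and Alpl went from 0 counts to 1.56 and 1.98 CPM. Of 8 heart markers 2 rose, 2 fell and 4 were not tested, with Myl7 at 0. The heavy chain Myh6, which reads can share with Myh7, rose from 0.642 and 0.231 to 81.1 and 80.3 CPM and Tnni3 from 1.05 and 1.25 to 4.62 and 6.46 CPM, while Gata4 fell from 30.6 and 29.3 to 16 and 14.3 CPM and Nppb from 3.68 and 1.84 to 0.569 and 0.349 CPM. Endothelial and leukocyte markers summed to at most 0.000392% of scaled counts in a library. The 5 smooth muscle markers, Acta2 first among them, summed to 0.0890% and 0.0869% in myoblasts, 0.141% and 0.135% in myotubes and 0.278% and 0.271% in reserve cells. Acta2 and Smtn rose, Tagln was not called, Myh11 was not tested and Cnn1 fell from 0.525 and 1.15 CPM to 0 counts. Neural and Schwann markers summed to at most 0.000415%.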

How the data were processed

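RNA-seq of polyadenylated RNA was measured in 6 C2C12 libraries, 2 each of Day 0 myoblasts, Day 7 myotubes and Day 7 reserve cells, and the first 4 were compared. As deposited, the values are estimated counts per transcript, which the authors made from paired-end reads with HISAT2, SAMtools and StringTie on mm10 (versions not given in the sources used here). They are whole numbers. Of 142604 transcripts 141374 were matched to genes of the GENCODE annotation and summed. Division of reads among close copies could not be checked.

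All 6 libraries entered 1 fit with edgeR 4.0.16 in R 4.3.3 (TMM factors, quasi-likelihood test, robust prior, genes kept by filterByExpr with a minimum count of 10). The threshold was a Benjamini-Hochberg adjusted p of 0.05. The procedure was tested on simulated data in which few genes changed, as many up as down and by modest folds. That test does not cover changes as wide as those found here. Alternatives were DESeq2 1.42.0, other scalings and filters, 4 libraries only, a replicate block and leaving out each library, and one without the robust prior was chosen after seeing the data. Replicates were not identical (chi-square per gene 6.53 in myoblasts and 8.30 in myotubes). Counts at 0 were bounded at 3 counts, and such bounds cover counting error only. Promoters are from RefSeq, GRCm38.p6.

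The members and gene lists were chosen with earlier results of these data known. Named genes are the 15 largest increases and decreases with at least 10 CPM in a group, without overlap and with an official symbol. Of each list they are the 4 smallest adjusted p, the 2 highest levels, members called against the majority, and all members of lists of up to 12 genes. Pair genes, followed proteins and the 10 genes with most counts were added. Beyond this rule, Cdkn1b, Cdkn2c, Cdkn2d, Gapdh, Lats1, Mbnl1, Mbnl2, Mbnl3, mt-Co2, Myh2, Myh8, Neb, Peg3, Sln, Ube2c, Vgll2 and Yap1 were chosen after their values were seen, and Cdc20, Mcm6, Nrap, Orc1, Prc1, Rfc3 and Tnni1 for their printed stretches. Some genes are not reported here.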

Additional observations from a re-analysis of the deposited data

How the results depend on the processing

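Of 840 list counts and overall counts recomputed under the alternatives, 831 stayed within 1.5 times their value. The genes changed at least 2-fold numbered 3585 with a filter of 10 CPM, where fewer genes were tested. Members that rose among mitochondrial regulators numbered 5 with DESeq2, 1 with the filter of 10 CPM and 4 to 5 when 1 library was left out, 5 without reserve cell replicate 1, against 3. Ribosomal protein genes that fell numbered 56 with library totals, against 33. With the filter of 10 CPM, 4 chemokines and 4 interferon genes fell. Imprinted and noncoding genes that fell numbered 3 to 7 when 1 library was left out, 3 without myoblast replicate 2, against 6. Mitochondrially encoded genes numbered 0 when left out by construction.

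Scaling by library totals moved the median of all genes to -0.27 and the share of calls that were higher from 49.9% to 36.5%, and 8840 of the 10137 calls were kept, 22 with the opposite sign. Under that scaling the log2 differences of Itch (-0.2202), Rbl2 (-0.2224), Cdk2 (-0.2578), Sdc4 (-0.1688), Bag3 (-0.003732), Igfbp6 (-0.07325) and Mbd3 (-0.06102) changed sign, as they lie near 0 and this scaling, which leaves out the TMM factors, moves every gene downward by about the shift of the median. For the same reason Atp5b, Casp12, Cdkn1c, Ezh1, Gapdh, Hdac5, Igf2r, Ipo8, Myl12b, Pdlim7, Slc25a4, Tet2, Tubb2b, Ufl1 and Vasp lost their calls under it, and Capn10, Capns1, Eef1a1, Hes1, Ldha, Parp1, Slc25a5, Tagln and Vcl were called lower. DESeq2 called 9431 genes. The replicate numbers did not pair the samples (correlations of deviations 0.0184, 0.0584 and -0.0396), and with the replicate block 10013 genes were called. The block ended the calls of Cd68 (edgeR adjusted p = 0.0548), Gapdh (0.0997) and Isg15 (0.0611) and called Vcl (0.0427) and mt-Co2 (2.32e-05). Of 464 genes followed singly 53 gained or lost a call in some alternative. Besides those named in the report, leaving out 1 library ended the call of Bag3, Bax, Bcl2, Bst2, Cxcl14, Fasn, Gapdh, Hspb6, Igfbp6, Ipo8, Mbd3, Peg3, Six4, Srebf2 and Tet2, with edgeR adjusted p of 0.0533 to 0.246. With 2 libraries a group, small differences of genes with few counts are the least certain.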

Other observations

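Of the transcripts, 1230 were matched to no gene, and they held 0.404% and 0.375% of the counts in the myoblast and 0.755% and 0.872% in the myotube libraries.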
